A study of Homo sapiens with 24 samples.

Results

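The genes described here are Ras GTPases and the proteins that switch them on and off, measured in 4 non-small cell lung cancer (NSCLC) cell lines that all carry mutant K-ras. The list held 9 genes: the GTPases HRAS, NRAS, RRAS and RRAS2, the guanine nucleotide exchange factors SOS1, RASGRF2 and RASGRP1, and the GTPase activating proteins NF1 and RASA1. A gene was measured where a transcript cluster of the array (a set of probes along a gene) is listed with that symbol alone, and where several were, the one that was brightest on average across all 24 arrays stood for the gene. By this rule 7 of the 9 genes were measured, out of 18417 genes in all. NRAS and RASA1 were not analysed here.

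Total RNA from H2009, H441, A549 and H460 cells was hybridized to Affymetrix Human Gene 1.0 ST arrays. The study classes H2009 and H441 as K-ras dependent, meaning that they need K-ras to survive, and A549 and H460 as K-ras independent. Each line had been stably transduced with lentivirus and held a scrambled shRNA (δscr, the control) or an shRNA against PRKCD, the gene of protein kinase C delta (δ193), with 3 biological replicates per group and thus 8 groups of 3 arrays. Control cells carried the virus too, and the knock-down rested on 1 shRNA sequence. All values are log2 expression values, 1 per gene and array.

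Ras proteins are small GTPases at the inner face of the plasma membrane that signal while bound to GTP. Exchange factors load them with GTP: SOS1 acts downstream of growth factor receptors, RASGRF2 responds to calcium, and RASGRP1 binds diacylglycerol, the lipid that also activates PKCδ. GTPase activating proteins such as NF1 (neurofibromin) speed the hydrolysis of GTP and so end the signal, which the mutant K-ras of these lines largely escapes. Messenger RNA on an array says nothing of how much of a Ras protein is bound to GTP.

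With PKCδ knock-down, RASGRF2 rose in H2009 and RASGRP1 fell in A549, which were the 2 called changes among 28 (7 genes in 4 lines), where called means that limma gave an adjusted p under 0.05 and the higher group was at least 25% above the lower. Over all genes and the 4 lines 7.32% of the changes were called, so that 2 of 28 is near the background. The GTPases HRAS, RRAS and RRAS2, the exchange factor SOS1 and NF1 were called in no line. At baseline, in the δscr cells, 28 of 42 comparisons between 2 lines were called, beside 43.2% over all genes and pairs, and RRAS spanned 3.42 log2 units. The lines differed from one another more than δ193 from δscr for genes at large too, whose median baseline range was 0.63 and whose median largest change was 0.25.

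PRKCD itself was lower with δ193 in every line. The log2 changes were -2.25 (H2009), -2.40 (H441), -1.26 (A549) and -2.03 (H460), and no δ193 array reached a δscr array of the same line. In H441 the 3 δ193 arrays read 5.69, 4.68 and 6.00, the widest spread of any group. Arrays 2 and 3 of that group stood apart from their own replicates more than any other arrays: 10.84% and 13.27% of all genes lay over 0.5 from the mean of the other arrays of the group, against 0.30% to 4.83% on the other 22. The spread within groups in H441 (residual variance) was 2.44 times as large as the median over the remaining lines. The epithelial keratins KRT8 and KRT18 were high in all groups (group means of 11.24 to 12.55), while those of EPCAM ran from 4.71 to 11.20, CDH1 from 4.90 to 11.23 and KRT19 from 4.98 to 10.77. Of the lung markers, NKX2-1, SFTPB, SFTPC and SCGB1A1 were at most 5.55, and FOXA2 ran from 4.84 to 7.27. Among markers of other cell types, PTPRC (at most 2.79) and CD3E (3.86) of immune cells, CDH5 (4.02), VWF (4.04) and PECAM1 (4.13) of endothelium, and DCN (2.77) and PDGFRA (3.36) of fibroblasts were low. CD68, a lysosomal protein used as a macrophage marker, read 9.23 to 10.70, CD14 4.66 to 6.11, COL1A1 6.03 to 6.70 and COL3A1 4.75 to 5.14. In such bulk samples fewer cells of a type and less RNA per cell cannot be told apart.

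**Figure D1:**
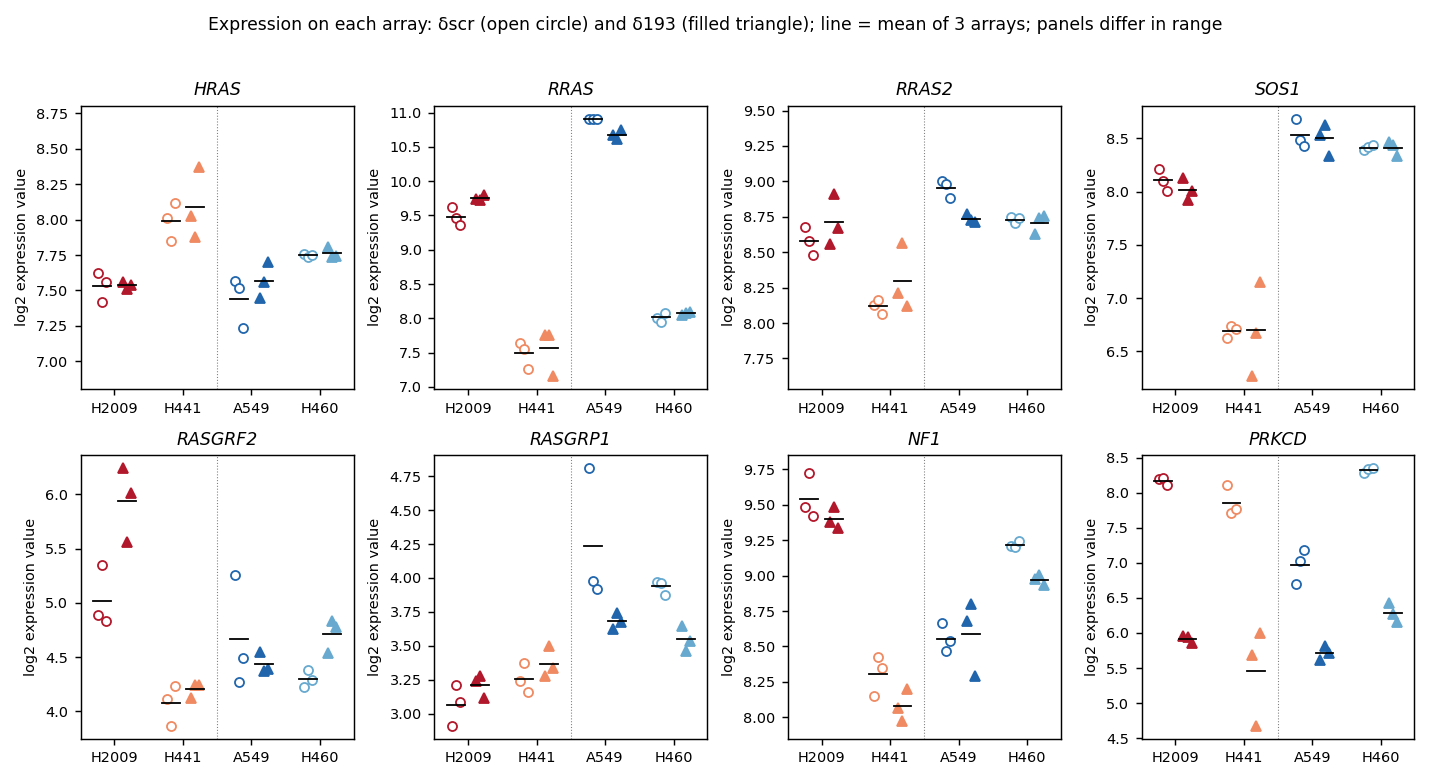
Log2 expression value (vertical axis) of the 7 Ras genes and regulators and of PRKCD on each of the 24 arrays, by cell line (horizontal axis), with δscr as open circles, δ193 as filled triangles and the mean of each group of 3 as a line; the vertical axes cover different ranges. The cell lines stand apart in RRAS and SOS1, where RRAS ranges from a mean of 7.49 in H441 to 10.91 in A549, while the 2 groups of a line are separated, among the exchange factors, for RASGRF2 in H2009 and H460 and for RASGRP1 in A549 and H460.

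Among the exchange factors, RASGRF2 gave the largest change. This factor acts on both Ras and Rac and is best known from the brain. In H2009 the δscr arrays read 4.89, 5.34 and 4.83 and the δ193 arrays 6.24, 5.56 and 6.02. All 3 δ193 arrays were above all 3 δscr arrays. The increase was 0.92 on the log2 scale, or 1.89-fold (SE 0.19, adjusted p = 0.00435), and it ranked 78th by size among all genes in that line. Of all genes, 4.91% were called in H2009, and RASGRF2 was the 1 called of the 7 Ras genes. It was called with each array left out in turn, with a change of 0.77 to 1.11, and over all alternatives its adjusted p ran from 0.000454 to 0.194.

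In H460 the RASGRF2 values were 4.22, 4.38 and 4.28 with δscr and 4.53, 4.84 and 4.78 with δ193. These groups did not overlap either, but the difference of 0.42 (SE 0.19) was not called (adjusted p = 0.264). It was called with H460 fitted alone (SE 0.09, adjusted p = 0.0176) and with array weights (adjusted p = 0.0428). The difference also passed the methods' test without adjustment. Its adjusted p over all alternatives ran from 0.0176 to 0.514. In H441 the values were 4.12, 3.87 and 4.23 against 4.12, 4.25 and 4.24, and the groups overlapped. In A549 they were 5.25, 4.27 and 4.49 against 4.55, 4.37 and 4.39, where the first δscr array was the highest of the line. The differences in those lines were 0.13 and -0.24 (SE 0.19 each) and were not called. Over the 4 lines the RASGRF2 changes differed (range 1.15, limma F-test, adjusted p = 0.0241), a test that called 14.1% of all genes. The genes tested on either side of RASGRF2 in the human RefSeq gene table, the mismatch repair gene MSH3 and the creatine kinase CKMT2, differed by 0.01 and -0.02 in H2009 (SE 0.13 each) and were called in no line.

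RASGRP1 is best known from lymphocytes. In A549 its δscr arrays read 4.81, 3.98 and 3.92 and its δ193 arrays 3.63, 3.74 and 3.67. Every δ193 array was lower, and the first δscr array stood well above the others. The change was -0.55 (SE 0.15, adjusted p = 0.0303), that is 1.47-fold lower, in a line where 4.63% of all genes were called. Without that first δscr array the difference was -0.27 and was no longer called (adjusted p = 0.186, range over all alternatives 0.00711 to 0.461). On that array 2.96% of all genes lay over 0.5 from the mean of the other 2 arrays, against 1.29% and 1.06% for those, and RASGRF2 was also highest there. The call was also lost without any 1 of the 3 δ193 arrays (-0.53 to -0.59, adjusted p of 0.0691 to 0.0963), and with A549 fitted alone (adjusted p = 0.177).

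In H460 the RASGRP1 values were 3.97, 3.97 and 3.88 with δscr and 3.65, 3.46 and 3.53 with δ193. The groups did not overlap, and the difference was -0.39 (SE 0.15, adjusted p = 0.154). It was called with H460 fitted alone (adjusted p = 0.00766), with arrays weighted by their quality (0.00772) and without the first A549 δscr array (0.00818), with SEs of 0.07, 0.10 and 0.09. The adjusted p over all alternatives ran from 0.00766 to 0.371. In the K-ras dependent lines RASGRP1 was 2.91, 3.21 and 3.08 against 3.24, 3.28 and 3.12 in H2009, and 3.24, 3.37 and 3.16 against 3.27, 3.50 and 3.33 in H441. The differences were 0.14 and 0.11 (SE 0.15 each), and neither was called. RASGRP1 was at the lower end of the array's range, with a mean of 3.54 where the median gene mean was 5.79, and no background level was measured. Its neighbours in the gene table, FAM98B and the non-coding LINC02694, differed by -0.24 and 0.06 in A549 (SE 0.14 each) and were called in no line.

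SOS1, the exchange factor that couples receptor tyrosine kinases to Ras, differed little between δ193 and δscr. The differences were -0.09 (H2009), 0.01 (H441), -0.03 (A549) and -0.00 (H460), with an SE of 0.14 each. The 95% confidence intervals lay between -0.38 and 0.30, so that a change past the fold limit was within some of them. These intervals use 1 estimate of spread for all lines, and so do not show the wider spread in H441. There the SD of the δ193 arrays was 0.44, and the difference ran from -0.33 to 0.23 over the alternatives. In H441 the δ193 arrays spread from 6.27 to 7.16, around δscr values of 6.62, 6.73 and 6.71.

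None of the 3 measured GTPases was called with PKCδ knock-down. HRAS, the classical Ras gene of the list that was measured, differed by 0.00 (H2009), 0.10 (H441), 0.13 (A549) and 0.01 (H460), with an SE of 0.11 each and with overlapping groups in all 4 lines. RRAS, a relative that acts on integrins and cell adhesion, read 9.62, 9.46 and 9.37 with δscr and 9.74, 9.72 and 9.80 with δ193 in H2009. There the δ193 arrays were all higher, by 0.27 on average (SE 0.12, adjusted p = 0.271). In A549 the RRAS arrays read 10.91, 10.90 and 10.91 against 10.67, 10.61 and 10.74, all lower with δ193, by -0.23 (SE 0.12, adjusted p = 0.4). The RRAS differences in H441 and H460 were 0.07 and 0.06.

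RRAS2 (TC21), an R-Ras protein that shares effectors with the classical Ras proteins, was 9.0, 8.98 and 8.88 against 8.77, 8.73 and 8.71 in A549. The groups did not overlap, and the difference of -0.22 (SE 0.10) was not called (adjusted p = 0.29). It was 0.14 (H2009), 0.18 (H441) and -0.02 (H460), where the groups overlapped. Over these 3 GTPases, SOS1 and NF1 the largest difference of any line was 0.27, and 4 of the 20 pairs of groups did not overlap. With RASGRF2 and RASGRP1 it was 8 of 28, beside 26.4% over all genes and lines. By line 0 to 3 of the 7 genes did not overlap, beside 21.3% (H441) to 34.2% (H460) of all genes, and no separation of a pair of groups that was not called is read as a change.

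NF1, the GTPase activating protein, differed by -0.14 (H2009), -0.23 (H441), 0.03 (A549) and -0.25 (H460), with an SE of 0.11 each. In H460 its δscr arrays read 9.21, 9.20 and 9.25 and its δ193 arrays 8.98, 9.0 and 8.93, which did not overlap (adjusted p = 0.251). Of the 5 genes called in no line it had the smallest adjusted p, 0.176 in H441. NF1 has copies elsewhere in the genome, and 2 further clusters with this symbol held the same values on all 24 arrays. Those clusters read lower (7.30 to 6.21 in δscr cells) and differed by -0.26, -0.18, -0.17 and -0.19 in H2009, H441, A549 and H460, so that the sign in A549 was not that of the cluster used.

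**Figure D2:**
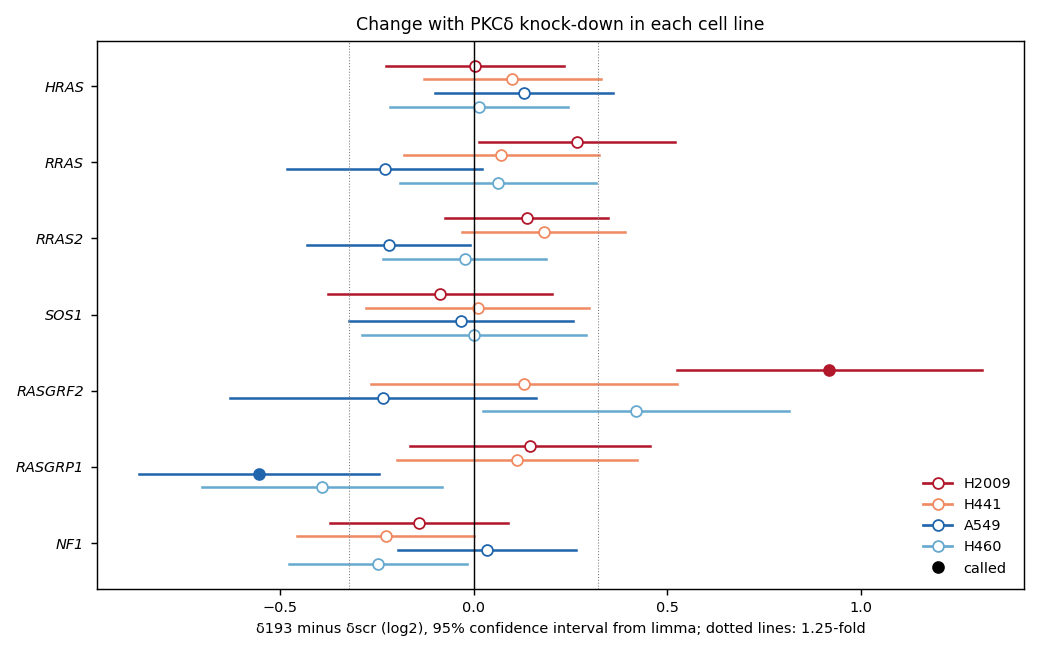
Difference between δ193 and δscr (log2, horizontal axis) for each gene (vertical axis) and cell line (colour), with the 95% confidence interval from limma, and with filled points for the called changes. The interval of RASGRF2 in H2009 (0.52 to 1.31) and that of RASGRP1 in A549 (-0.86 to -0.25) belong to the called changes; the differences that were not called lie between -0.39 and 0.42.

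In H441, where 14.3% of all genes were called, 0 of the 7 Ras genes were, and in H460, where 5.45% were, 0 were called as well. The median difference of the 7 genes was 0.14 (H2009), 0.10 (H441), -0.22 (A549) and -0.00 (H460), beside 0.01, 0.00, 0.01 and 0.01 for all genes. By the test that the study's methods apply within each line, at an unadjusted p under 0.05 and the same fold, 1 of the 7 genes passed in H2009 and 2 in H460, and 0 in either of the other lines. That test passed 7.23% (H2009), 9.76% (H441), 6.20% (A549) and 8.73% (H460) of all genes.

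The mean change in H2009 and H441 was then set against that in A549 and H460, to ask whether K-ras dependent and independent lines respond differently. Only RASGRP1 was called among the 7 (difference between classes 0.60, SE 0.15, adjusted p = 0.0197), beside 4.65% of all genes. Its changes were 0.14 and 0.11 in the dependent and -0.55 and -0.39 in the independent lines, a gap of 0.50 between the classes (33.2% of all genes had such a gap of any size). The difference was called with each array left out in turn (0.46 to 0.68). Those arrays of 1 line are not replicates of a class, however, and with 1 value per line (2 lines against 2) no gene of the array was called (0.00% of all genes, 716 at an unadjusted p under 0.05), RASGRP1 included (adjusted p = 0.985). An exact two-sided permutation over 4 lines has 6 assignments and cannot give a p below 0.333, the value that RASGRP1 had. The δscr means of RASGRP1 in H2009 (3.07) and H441 (3.26) were already below its δ193 means in A549 (3.68) and H460 (3.55). The PRKCD changes differed among the lines too (range 1.15, limma F-test, adjusted p = 0.0261). The part of either in the class difference was not tested.

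The class differences in change of the other genes were 0.43 for RASGRF2 (SE 0.19, adjusted p = 0.225), 0.28 for RRAS2 (SE 0.10, adjusted p = 0.124), 0.25 for RRAS (SE 0.12, adjusted p = 0.278), -0.02 for HRAS, -0.02 for SOS1 and -0.08 for NF1. For RRAS and RRAS2, both dependent lines had a higher change than both independent lines, by a gap of 0.01 and 0.16. Without the third H441 δ193 array, RRAS (0.35, adjusted p = 0.0155) and RRAS2 (0.33, adjusted p = 0.0398) were called too, which made 3 of 7. RRAS was also called with array weights. A difference over the 4 lines without regard to class was called for RASGRF2 and for RASGRP1 (range 0.70, adjusted p = 0.0401), and between 0 and 3 of the 7 genes were called there when 1 array was left out. The call was lost in 16 of 33 alternatives for RASGRP1, 15 of them with a single array left out (adjusted p of 0.00909 to 0.0749), and in 7 of 33 for RASGRF2 (0.00694 to 0.0662).

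At baseline, RRAS showed the widest range. Its δscr means were 10.91 in A549, 9.48 in H2009, 8.01 in H460 and 7.49 in H441, and all 6 pairs of lines were called. After cyclic loess the step between H441 and H460 was no longer called (-0.24 in place of -0.52, adjusted p = 0.168, range over all alternatives 1.92e-05 to 0.168). A549 was 10.69-fold above H441 and 7.43-fold above H460. The range of 3.42 was at the 98.3 percentile of all genes, whose median range was 0.63. The 12 δscr arrays formed 4 separate levels, and both the highest and the next-to-lowest level belonged to K-ras independent lines.

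SOS1 set H441 apart. Its δscr means were 6.69 in H441, 8.10 in H2009, 8.41 in H460 and 8.53 in A549, so that H441 was 2.67-fold to 3.59-fold below the other lines. Among those lines the steps from H2009 to H460 and from H460 to A549 were not called, while H2009 was 1.35-fold below A549 (adjusted p = 0.0139), a call lost without the first A549 δscr array or the third H2009 δscr array. The range of 1.84 was at the 91.8 percentile.

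RRAS2 was also lowest in H441, at 8.12, followed by H2009 at 8.58, H460 at 8.73 and A549 at 8.96. H441 was 1.38-fold to 1.79-fold below the other lines, and of the differences among those only that between H2009 and A549 was called (1.30-fold, adjusted p = 0.00337). When the arrays were normalized again by quantiles or cyclic loess, H2009 and H441 were 0.29 and 0.27 apart and were not called. HRAS varied least of the 7 genes, from 7.44 in A549 to 7.99 in H441, a range of 0.55. It was higher in H441 than in A549 (1.47-fold) and H2009 (1.37-fold), and no neighbours in the order of the 4 lines were called. H441 was called above H460 after quantile normalization was repeated (0.45 in place of 0.24, adjusted p = 0.00107) and after cyclic loess (0.45, adjusted p = 0.000845, range over all alternatives 0.000845 to 0.24).

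RASGRP1 was 3.07 in H2009, 3.26 in H441, 3.94 in H460 and 4.24 in A549. All 4 pairs of a dependent with an independent line were called, with folds of 1.60 to 2.25, and neither pair within a class was. A549 was, however, called above H460 without the second A549 δscr array (0.426, adjusted p = 0.0385) or the third (0.455, adjusted p = 0.0218). RASGRF2 was 4.07 in H441, 4.30 in H460, 4.67 in A549 and 5.02 in H2009, where no neighbours in the order were called but H2009 was 1.93-fold above H441. H2009 was, however, called above A549 without the first A549 δscr array (0.64, adjusted p = 0.00295) and with array weights (0.54, adjusted p = 0.00993). A549 was called above H460 without the second A549 δscr array (0.57, adjusted p = 0.0226). The RASGRF2 difference between H441 and A549 (-0.60) fell to -0.31 without the first A549 δscr array and was not called (adjusted p = 0.135). NF1 was 8.31 in H441, 8.56 in A549, 9.22 in H460 and 9.54 in H2009, with 5 of 6 pairs called and H2009 2.36-fold above H441. The step from H460 to H2009 (0.32, adjusted p = 0.0219) was lost without the first or the second H460 δscr array or the second H2009 δscr array (adjusted p of 0.0552, 0.0575 and 0.144, range over all alternatives 0.00182 to 0.144).

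H441 had the lowest δscr mean for 5 of the 7 genes (RRAS, RRAS2, SOS1, RASGRF2 and NF1) and the highest for HRAS. For NF1 and RASGRF2 the step from H441 to the next line was not called (adjusted p = 0.0624 and 0.335). In the further NF1 clusters A549 was lowest, at 6.21, with H441 at 6.41. The share of all genes that were lowest in H441 was not counted. Counted by pair of lines, 6 of the 7 genes were called between H2009 and H441 beside 49.3% of all genes, 5 between H2009 and A549 (41.4%), 4 between H2009 and H460 (35.5%), 6 between H441 and A549 (48.4%), 5 between H441 and H460 (45.4%) and 2 between A549 and H460 (38.9%). Pairs within a class were thus called as well as pairs across classes.

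**Figure D3:**
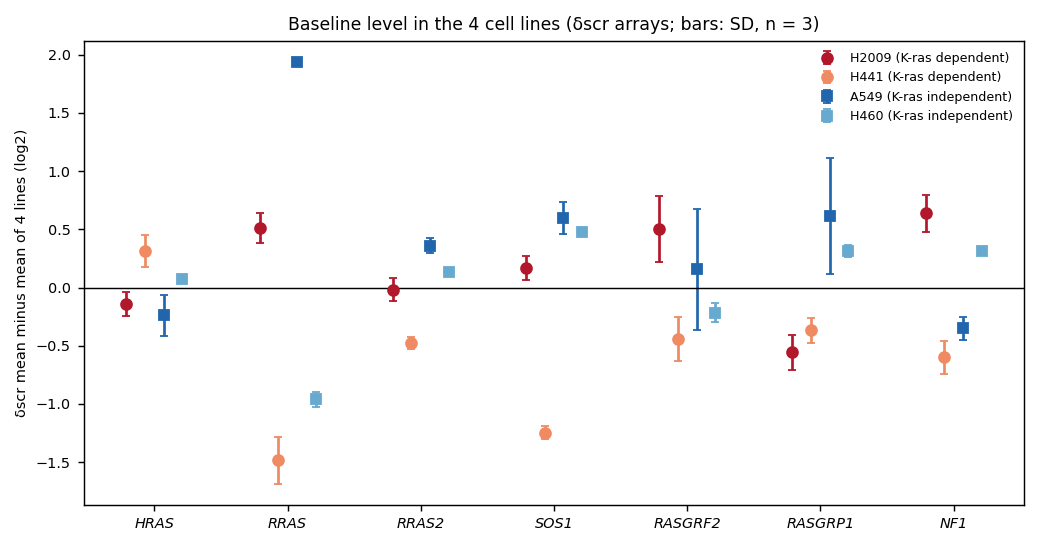
Baseline of the 7 genes in δscr cells: the mean of each cell line minus the mean of the 4 lines (log2, vertical axis), with bars for the SD of 3 arrays, circles for K-ras dependent and squares for K-ras independent lines. H441 is lowest for 5 genes, and the circles lie below the squares for RRAS2, SOS1 and RASGRP1.

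Between the classes, 4 of the 7 genes were called at baseline, all lower in the K-ras dependent lines: SOS1 by -1.08 (2.11-fold), RRAS by -0.97 (1.96-fold), RASGRP1 by -0.93 (1.90-fold) and RRAS2 by -0.50 (1.41-fold). Of all genes 33.8% were called in this comparison, 3438 lower and 2780 higher. The 6 dependent arrays did not overlap the 6 independent ones for RASGRP1 (gap 0.51), SOS1 (gap 0.18) and RRAS2 (gap 0.03), beside 9.86% of all genes, and they overlapped for RRAS, HRAS, RASGRF2 and NF1. HRAS differed by 0.17 (adjusted p = 0.0797), RASGRF2 by 0.06 and NF1 by 0.04. With 1 value per line, 0 of the 7 genes and 0.00% of all genes were called (619 at an unadjusted p under 0.05), and the exact permutation p was 0.333, the smallest possible, for RASGRP1, SOS1 and RRAS2. With the cell line as a random block (correlation within a line 0.80), 0 of the 7 were called, beside 24 of all genes. Of the 5 epithelial markers, 3 were called higher in the dependent lines in this class comparison. EPCAM was at 11.20 in H2009 and 5.89 in H441 against 4.71 in A549 and 5.45 in H460. In H441 set against A549, however, 3 of the 5 markers were called lower and 2 higher. Their part in the result was not tested.

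Each gene was also set against all other genes over the 24 arrays, as a description of how the lines order them. The genes most like RRAS were DKK1 (Pearson r = 0.981), EGFR (0.979) and FBXO17 (0.977), and those most like SOS1 were ZSWIM1 (0.989), ELOVL1 (0.985) and MRPS11 (0.983). NF1 ran most closely with HTT (0.978), BMP2K and TMEM181 (both 0.964), HRAS with SDHD (0.931), ORC6 (0.927) and TNIP2 (0.923), and RRAS2 with ARF6 (0.926), ARIH1 and C20orf96 (both 0.917). RASGRF2 was most like CRISP3 (0.909), SPRR2F (0.903) and SPRR3 (0.897), and RASGRP1 most like TSPAN33 (0.891), ADCY1 (0.883) and SCARA3 (0.873). The 24 arrays come from only 4 lines, so that such r values mostly restate the order of 4 levels.

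The wider Ras pathway was covered by 6 lists of 95 genes, of which 87 were measured. With PKCδ knock-down 3 of the 87 were called in H2009 (2 lower, 1 higher), 15 in H441 (12 lower, 3 higher), 8 in A549 (4 each way) and 7 in H460 (4 lower, 3 higher), that is 3.45%, 17.2%, 9.20% and 8.05%, beside the shares of all genes given above. With H441 fitted alone 2 of the 87 were called in that line, and 0 by the methods' test after adjustment. Their median differences were -0.02, -0.04, -0.00 and 0.00. Of the 87 genes, 23 were called in at least 1 line, 13 of these in 1 line and 10 in 2, and 0 in 3 or 4. By comparison, 22.5% of all genes were called in at least 1 line.

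Of 25 other Ras-family GTPases 4 were called in a line, beside 22.5% of all genes. RAP1A, which controls integrin adhesion, fell in H2009 (-0.50), and RASL11A fell in H441 (-0.52). NKIRAS2, which holds back NF-κB, was called higher in both K-ras dependent lines (0.39 and 0.43), and RIT1 in H441 (0.33). Neither was called in A549 or H460, where the group means were higher with δ193 too. In H460 NKIRAS2 went from 8.15 to 8.32 and RIT1 from 7.63 to 7.94. In A549 NKIRAS2 went from 8.70 to 8.77 and RIT1 from 7.11 to 7.32. For the class difference in change, 0 of these 25 GTPases were called. The 5 other exchange factors, among them relatives of the 3 described above, were called in no line, with medians between -0.07 and 0.23. Of 6 other genes listed with the GTPase activating proteins (RASA2, RASA3, RASAL1, RASAL2, RASAL3 and IQGAP1) 1 was called. RASA3 rose in A549, from 5.49 ± 0.03 (SD, n = 3) to 6.15 ± 0.13 (change 0.66, adjusted p = 0.000257). Whether each gene of this list acts on Ras was not tested.

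Adaptors, which carry the signal from receptors to SOS1, were called most often in H441, where 4 of 11 fell (36.4%). Of all genes, 14.3% were called in that line. The adaptors that fell were SHC3 (-0.77), SHC4 (-0.65), GAB1 (-0.54) and SHC1 (-0.51). The spread within groups was widest in H441, and most calls of pathway genes there were lost with that line fitted alone. GAB1 was called lower in A549 too (-0.60), though its groups overlapped there (δscr from 5.51, δ193 up to 5.54). SHC3 rose in A549 (0.38) and SHC4 rose in H460 (0.67). Of 26 effectors and scaffolds 10 were called in a line, beside 22.5% of all genes. RASSF5 fell in A549 (-0.88) and H441 (-0.42), RASSF2 fell in A549 (-0.88), PLCE1 (phospholipase C epsilon) fell in H460 (-0.81) and H441 (-0.61), and PIK3CG, a catalytic subunit of PI3-kinase, fell in H441 (-0.75). Among 14 genes of lipid modification and trafficking, RCE1, which clips the end of Ras proteins, fell in H2009 (-0.52), LYPLA1, a thioesterase that can remove palmitate, fell in H460 (-0.39), and PRKCA, another PKC isoform, and LGALS3 (galectin-3) rose in A549 (0.37 and 0.34).

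For the class difference in change, 4 of the 87 genes were called (4.60%, against 4.65% of all genes). SHC4 (-0.64, adjusted p = 0.0103), SHC3 (-0.56, adjusted p = 0.00323) and PRKCA (-0.34, adjusted p = 0.012) had the lower change in the dependent lines, and LYPLA1 (0.41, adjusted p = 0.00495) the higher. In A549 SHC3 read 3.98 with δscr and 4.36 with δ193, and SHC4 3.19 and 3.28. Those means were below the array medians of 4.78 to 4.91. In H2009 alone the changes of SHC4, SHC3, PRKCA and LYPLA1 were 0.14, -0.09, -0.07 and -0.01, none called, so that within the dependent class the larger differences were those of H441 (-0.65, -0.77, -0.30 and 0.29). With 1 value per line none of the 4 was called (adjusted p = 0.985 each).

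**Figure D4:**
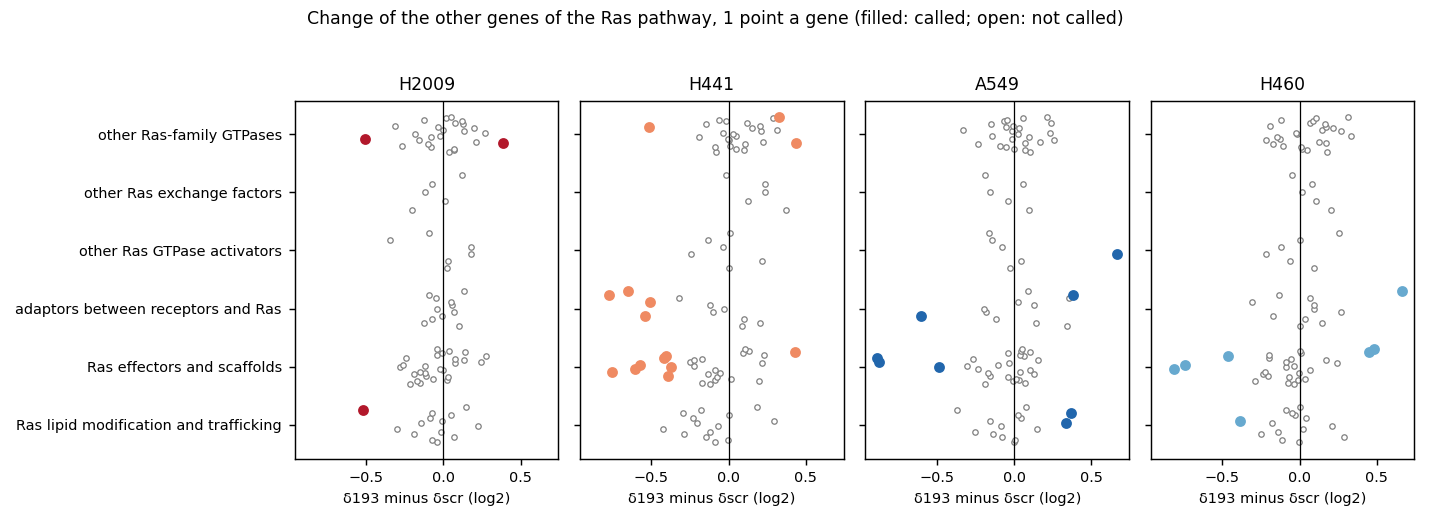
Difference between δ193 and δscr (log2, horizontal axis) for the 87 other genes of the Ras pathway, by list (vertical axis) and cell line (panel), 1 point per gene, filled where called. Called genes number 3 (H2009), 15 (H441), 8 (A549) and 7 (H460), and in H441 the 4 called adaptors all lie below 0.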

How the data were processed

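The deposited values are log2 expression values of 33252 transcript clusters on 24 arrays, which the authors made with Affymetrix Power Tools by RMA (background correction, quantile normalization, probe summary). Their versions, annotation release and genome build: not given in the sources used here. Groups came from the sample labels, the K-ras class from the study. Of the clusters, 19460 had 1 symbol (19429 updated through the Entrez ID, 31 kept), 1754 several and 12038 none; the last 2 kinds were not used. The cluster with the highest mean stood for each of 769 genes with several. Array medians were 4.78 to 4.91.

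limma 3.58.1 (R 4.3.3) was fitted to all 24 arrays and 18417 genes with 1 coefficient per group; all p-values took the Benjamini-Hochberg adjustment over these genes. Calls needed an adjusted p below 0.05 with a fold change of 1.25 or more in either direction. The number of arrays limits the precision. The code was tested on simulated data: of 67 genes changed 1.5-fold, 51 (H2009), 54 (H441), 51 (A549) and 49 (H460) were recovered, and 36, 412, 23 and 10 unchanged genes were called in the same order of lines. Each line also had 67 genes changed 2-fold and 66 changed 3-fold. In H441 the 412 unchanged genes called outnumbered all the changed ones, so false calls there exceeded what an adjusted p of 0.05 states. They exceeded it in H2009 and A549 too, by less.

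Genes named were all members and PRKCD, up to 4 of each pathway list with the largest called change and up to 3 with the largest called class difference, the tested neighbours of called members, and the 3 genes most correlated with each member. The members, lists and tests were chosen with earlier results of these data known. Alternatives were the methods' Student's test, each line fitted alone, other spreads, weights, normalizations, filters and folds, the mean over clusters, a replicate block, 1 value per line, and arrays left out.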

Additional observations from a re-analysis of the deposited data

Results flagged for a closer look

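The changes with PKCδ knock-down differed among the 4 cell lines for RASGRF2 (range 1.15 on the log2 scale, from 0.92 in H2009 to -0.24 in A549, limma F-test, adjusted p = 0.0241) and RASGRP1 (range 0.70, from 0.14 in H2009 to -0.55 in A549, adjusted p = 0.0401, a call lost in 16 of 33 alternatives). RASGRP1 also differed between the classes (0.60, adjusted p = 0.0197). Of the named pathway genes, SHC3 (-0.56), SHC4 (-0.64) and PRKCA (-0.34) had a lower and LYPLA1 (0.41) a higher change in the K-ras dependent than in the independent lines. None of these class differences was called with 1 value per line.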

How the results depend on the processing

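Over 91 results on single genes and 3264 alternative values, 3178 kept their direction and their side of the thresholds, or were called under neither, 60 lost and 26 gained the call, and no called value changed sign (46 values that were called in neither fit did). Of the 7 genes, the Student's test with adjustment called 0 in H2009, 0 in A549 and 1 in H460, and without adjustment 0 in A549 and 2 in H460. With each line fitted alone 0 were called in A549 and 2 in H460. Array weights gave 2 in H460 and 2 for the class difference in change. A fold of 1.5 left 0 in A549. With only genes above the median level, which leaves out RASGRF2 and RASGRP1, 0 were called in H2009, in A549, for the class difference in change and for a change that differs among the lines. The last count was 1 after repeated quantile normalization, 1 after cyclic loess and 1 with a replicate block. With 1 value per line 0 were called for the class difference in change and 0 for that at baseline, where the random block gave 0 too. With single arrays left out, the counts ran from 0 to 1 in A549, 0 to 1 in H460, 1 to 3 for the class difference in change and 0 to 3 among the lines. The replicate numbers were not used as pairs in the main fit. Same-numbered arrays had correlations of -0.09 to 0.28 (2 of 12 over 0.1, both in H2009), beside -0.29 to 0.17 for the others. Of the 12 δscr arrays 6 matched best with the δ193 array of their own number, so pairing was not settled. The replicate block changed no other of these counts. Counts over the 87 pathway genes ran from 0 to 4 in H2009, 0 to 21 in H441, 0 to 12 in A549, 3 to 9 in H460 and 0 to 7 for the class difference in change. The cause of these shifts was not tested.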
